A study of Rattus norvegicus with 2 samples.

Results

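The chaperones of the cytosol and mitochondria were examined in control cells and sorted cells of the rat myeloma line YB2/0. The list held 40 genes: the HSP70 and HSP90 proteins, the small heat shock protein HSPB1, the chaperonins, the prefoldin subunits, J-domain (DNAJ) proteins, cochaperones and the mitochondrial unfoldase CLPX. Every probe set whose annotated gene symbols included one of these genes was taken, without regard to its signal. This gave 102 probe sets of 39 genes among 54613 probe sets on the array. No probe set was annotated as AHSA1, the remaining gene.

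Molecular chaperones bind unfolded or partly folded proteins and keep them from aggregating. HSP70 proteins bind short hydrophobic stretches in a cycle driven by ATP, which J-domain proteins start and nucleotide exchange factors end. HSP90 proteins act later on clients such as kinases and steroid receptors, helped by a set of cochaperones. The chaperonins are barrels that enclose a folding protein, and prefoldin hands actin and tubulin to the cytosolic one. Cells that make large amounts of protein depend on this machinery. Many of its genes are induced by heat shock factor 1 through promoter sites called heat shock elements.

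RNA came from 1 sample of each kind of cell. The control cells were conventionally cultured YB2/0 cells without treatment, which the study's text describes as untransfected. The sorted cells derive from YB2/0 cells into which a retroviral cDNA library of human umbilical vein endothelial cells had been introduced, and which had been selected by binding of IgG from patients with Takayasu arteritis over repeated rounds of flow cytometry. The study's text calls the cells on the array cloned cells, and neither it nor the labels name the serum or clone. A property of 1 clone, an effect of sorting and an effect of the introduced cDNA or retrovirus cannot be told apart. Both samples share the rat myeloma background. The probes are annotated to human genes, so a rat transcript is measured only where it is similar enough to bind them.

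Each probe set has a MAS5 signal on a linear scale, made comparable by 1 scaling factor per array, and a detection call (Present, Marginal or Absent). A Present call means that the matching probes were brighter than their mismatch partners with a detection p-value of at most 0.0490. Differences are given as log2 ratios, the signal in sorted cells over that in control cells. The 18 probe sets of the hybridisation spikes, added to both samples in equal amounts, had log2 ratios from -0.58 to 0.57. As each kind of cell was measured once, no replicate error and no test can be given, and values inside the spike range are not told from equal signals. A value outside that range is not shown to exceed the variation between cultures, which was not measured. Fewer cells of a type and less RNA per cell cannot be told apart in such samples, nor can the array and the kind of cell. The median log2 ratio of all 2556 probe sets Present on both arrays was 0.11, and a small positive value is to be read against it. Of the plasma cell and B lineage markers, 3 of 12 genes with a probe set were Present on at least 1 array, 3 in control cells and 1 in sorted cells. SDC1 (syndecan-1, a plasma cell surface marker) was Present on both with 3390 in control and 4206 in sorted cells. PRDM1, a regulator of plasma cell fate, had 1850 (Present) in control and 1113 (Marginal) in sorted cells at 217192_s_at. At 228964_at it had 483 (Present) and 528 (Absent), the other direction. CD27 had 1353 (Present) and 253 (Absent), at least 5.34-fold lower in sorted cells. The summed signal over all 23 probe sets of the list was 20298 in control and 17144 in sorted cells. As 19 of the 23 were not Present on either array, the sum is not read as a level. The part of these markers in the chaperone results was not tested. Of 10 endothelial markers, 0 were Present on either array.

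Chaperone transcripts were detected more often than the array as a whole. Of the 102 probe sets, 29 (28.4%) were Present on both arrays, 8 in control cells only and 9 in sorted cells only, against 4.68%, 4.25% and 3.56% of all probe sets. Among probe sets with an annotated gene 5.29% were Present on both arrays and 13.2% on at least 1. Per gene, 18 of the 39 genes had a probe set Present on both arrays, 9 more were Present on 1 array, and 12 were not Present on either. The detected share was 55.6% of 9 probe sets for HSP90 proteins, 55.2% of 29 for cochaperones, 46.7% of 15 for HSP70 proteins, 42.9% of 21 for chaperonins, 35.7% of 14 for DNAJ proteins and 27.3% of 11 for prefoldin. Detection depends on the fit of rat transcripts to human probes as well as on abundance, and the part of each was not tested.

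**Figure D1:**
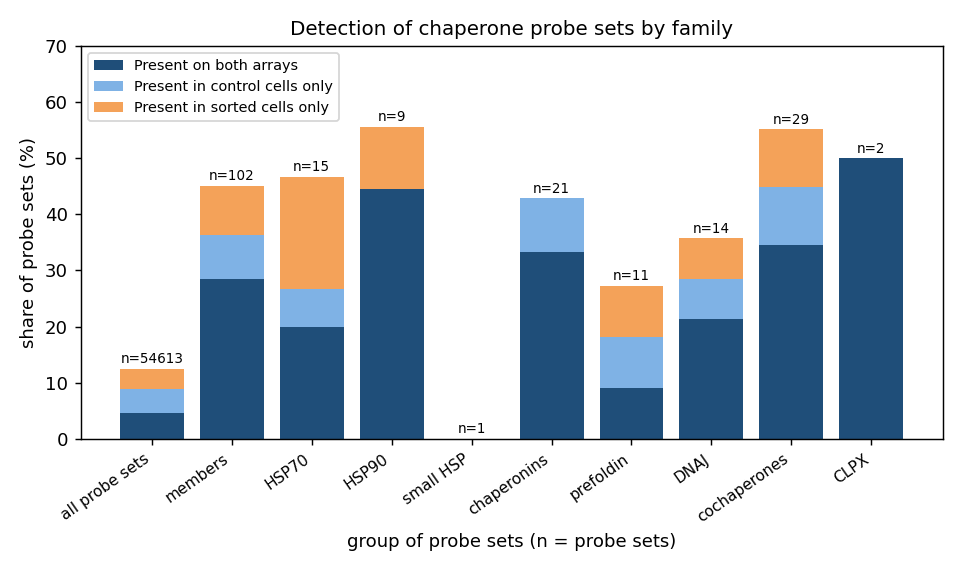
Share of probe sets (vertical axis, percent) called Present on both arrays, in control cells only or in sorted cells only, for all probe sets, the 102 chaperone probe sets and each chaperone family (horizontal axis, n = probe sets). The chaperones as a whole reached 45.1%, against 12.5% of all probe sets.

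Most detected chaperones had similar signals in both samples. A gap of at least 2-fold was counted where the brighter of the 2 signals was called Present. By this rule 5 of the 102 chaperone probe sets had the higher signal after sorting and 4 had the lower, where 1.61% and 1.77% of all probe sets were. Because chaperones were detected more often, the fitting background is the probe sets Present on at least 1 array, of which 12.9% were higher and 14.1% lower. Of the 46 chaperone probe sets Present on at least 1 array, 10.9% were higher and 8.70% lower, which is near that background. Among the 29 Present on both arrays, 26 differed by less than 2-fold, with a median log2 ratio of 0.07. CLPX was higher, and HSP90AA1 and CCT3 were lower, where 6.34% of all probe sets Present on both arrays were higher and 4.15% lower. The SD of their log2 ratios was 0.66, and it was 0.67 over all probe sets Present on both arrays. With the arrays centred on the probe sets Present on both, the median of the 29 was -0.04, and with quantile normalization it was also -0.04, so that the sign of the group's median changed with the scaling.

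**Figure D2:**
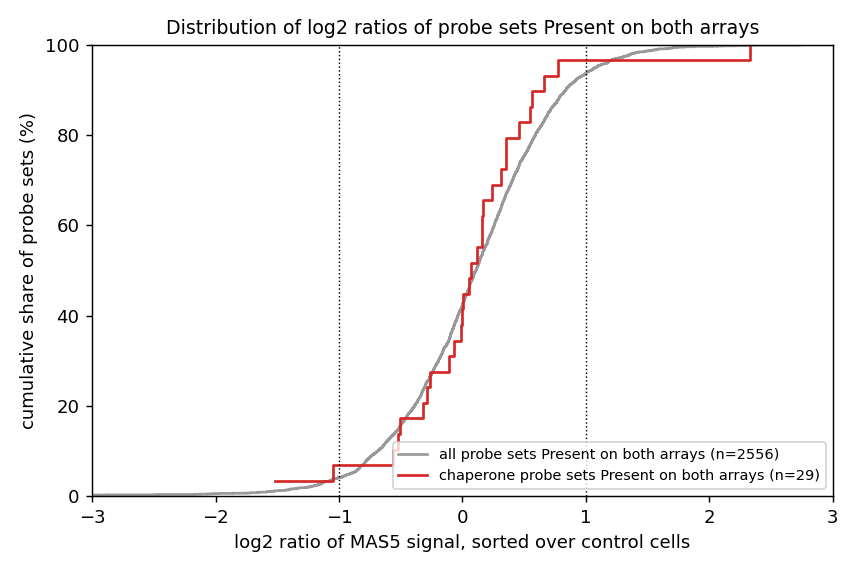
Cumulative share of probe sets (vertical axis, percent) by the log2 ratio of sorted over control signal (horizontal axis), for the 29 chaperone probe sets (red) and all 2556 probe sets (grey) Present on both arrays. The dotted lines mark 2-fold, the axis ends at a log2 ratio of 3 on either side, which leaves out 8 grey probe sets, and the curves lie close to each other.

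Among the HSP70 proteins, the constitutive cytosolic HSPA8 was detected in both samples at nearly equal signals. Its probe set 210338_s_at had 439807 in control and 561639 in sorted cells, both Present, a log2 ratio of 0.35. The probe set 208687_x_at had 6627 and 6658, both Present, a log2 ratio of 0.01. Probe set 221891_x_at had 488, called Absent, and 301, called Present, and the last was Absent on both arrays. Centring gave 0.24 for 210338_s_at and quantile normalization -0.08, so HSPA8 was not separated between the samples. All 4 are annotated to HSPA8 together with SNORD14C and SNORD14D, small nucleolar RNAs, and the suffixes _s_at and _x_at mark probes that can bind related transcripts. The rat gene Hspa8 lies on chromosome 8 from 50080514 to 50084376 (GRCr8). The 250 bases before its start, chr8:50080264-50080513 on the plus strand from RefSeq, hold heat shock elements in capitals and are shown because the site recurs in several of the genes below.
Hspa8: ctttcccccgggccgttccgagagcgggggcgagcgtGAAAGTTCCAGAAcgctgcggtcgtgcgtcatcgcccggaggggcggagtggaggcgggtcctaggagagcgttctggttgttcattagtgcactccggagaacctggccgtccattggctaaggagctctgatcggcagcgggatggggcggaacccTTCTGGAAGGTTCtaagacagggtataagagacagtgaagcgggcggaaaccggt

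HSPA4 and HSPH1 belong to the HSP110 branch, which acts as nucleotide exchange factors for HSP70. HSPA4 had equal signals at 211015_s_at, with 2191 in control and 2185 in sorted cells, both Present. Its other probe sets were not Present on either array, 208815_x_at being Marginal in sorted cells. HSPH1 was detected in sorted cells only, by 206976_s_at, which was Absent at 18.5 in control cells and Present at 452 in sorted cells. Where 1 signal was Absent, only a limit of the fold is given, with that signal raised to the dimmest Present one of its array if it lay below it (148 in control cells, 159 in sorted cells). HSPH1 was thus at least 3.05-fold higher in sorted cells. This value is dim and near the limit of detection, with a detection p-value of 0.0376. With dim signals raised to the median of the Absent probe sets the log2 ratio was 0.91, under 2-fold. The other probe sets of HSPH1, 208744_x_at (1496 and 2004) and 235573_at (284 and 120), were Absent on both arrays. The rat Hsph1 gene is on chromosome 12 from 10427368 to 10446602. Its upstream 250 bases, chr12:10427118-10427367 on the plus strand, are shown for the site close to the start, in capitals.
Hsph1: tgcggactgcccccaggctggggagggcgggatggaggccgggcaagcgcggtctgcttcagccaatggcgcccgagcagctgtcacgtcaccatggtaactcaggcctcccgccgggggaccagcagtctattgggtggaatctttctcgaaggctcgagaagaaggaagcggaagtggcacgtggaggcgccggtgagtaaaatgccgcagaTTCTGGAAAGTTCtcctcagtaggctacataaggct

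HSPA9 (mortalin), the HSP70 of the mitochondrial matrix, gave opposite readings. Probe set 200692_s_at was Present at 1453 in control cells and Absent at 800 in sorted cells, at least 1.82-fold lower in sorted cells. Probe set 232200_at was Absent at 295 in control cells and Present at 606 in sorted cells, at least 2.05-fold higher. The latter passed the 2-fold rule, but not with centring (log2 ratio 0.93). Its remaining probe sets were Absent on both arrays, so no direction can be given for HSPA9.

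The constitutive HSP90 protein HSP90AB1 did not differ by 2-fold at any of its 3 probe sets, all Present on both arrays. Probe set 200064_at had 22125 in control and 21124 in sorted cells, 1557910_at had 14413 and 11797, and 214359_s_at had 11796 and 13938. The log2 ratios were -0.07, -0.29 and 0.24, on either side of 0 and within the spike range. HSP90AA1, the inducible HSP90, was read differently by its probe sets. Probe set 211968_s_at had 2219 in control and 774 in sorted cells, both Present, so it was 2.87-fold lower in sorted cells. The brighter probe set 211969_at had 13998 in control cells, called Absent with a detection p-value of 0.0806, and 14984 in sorted cells, called Present with 0.0461. These signals are nearly equal, and the other probe sets of HSP90AA1 were Absent on both arrays. The lower value of 1 probe set was thus not shared by a second one. TRAP1, the mitochondrial HSP90, was Absent on both arrays at both probe sets.

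The cytosolic chaperonin, called CCT or TRiC, is a ring of 8 different subunits that folds actin and tubulin. Each ring holds 1 copy of every subunit, and the signals of the subunits went both ways. CCT7 (200812_at) had 3184 in control and 5457 in sorted cells, CCT4 (200877_at) had 13111 and 19130, and CCT2 (201947_s_at) had 5329 and 8412. These had the brighter signal in sorted cells, with log2 ratios of 0.78, 0.55 and 0.66, all under 2-fold and, other than CCT4, above the spike range. CCT3 (200910_at) had 2048 and 987, which was 2.07-fold lower in sorted cells, and CCT6A (201327_s_at) had 1903 and 1590, a log2 ratio of -0.26. All 5 of these probe sets were Present on both arrays. CCT3 was called Present in control cells with a detection p-value of 0.0461. A second CCT2 probe set, 201946_s_at, was Present at 1175 in control cells and Absent at 568 in sorted cells, at least 2.07-fold lower, which is the opposite of 201947_s_at. CCT8 was Present in control cells only at 210436_at (334 and 417), and 200873_s_at was Absent at 2329 in control and Marginal at 723 in sorted cells. TCP1 and CCT5 were not Present on either array. The log2 ratios of CCT7, CCT4 and CCT2 201947_s_at were also positive with centring (0.44 to 0.67) and with quantile normalization (0.42 to 0.68). CCT3 and CCT6A stayed negative under both. CCT2 201947_s_at was then at 0.55 and 0.56, under the upper end of the spike range as deposited. That range was not recomputed under either scaling.

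HSPD1 (HSP60) forms the chaperonin of the mitochondrial matrix and HSPE1 (HSP10) is its lid. HSPD1 had a higher signal in sorted cells at both of its detected probe sets. Probe set 200807_s_at had 85467 in control and 117497 in sorted cells, and 200806_s_at had 14221 and 21049, all Present. The log2 ratios of 0.46 and 0.57 differed by 0.11, and both lie within the spike range. They stayed positive with centring (0.35 and 0.46). The other 3 probe sets of HSPD1 were Absent on both arrays. The single probe set of HSPE1, 205133_s_at, was Marginal at 516 in control and Absent at 567 in sorted cells. The rat genes lie head to head on chromosome 9, and their annotated spans overlap, Hspd1 from 64073610 to 64084332 on the minus strand and Hspe1 from 64084327 to 64087415 on the plus strand. The 250 bases before Hspe1, chr9:64084077-64084326 on the plus strand, lie within the Hspd1 span. They are shown because the element in capitals, 18 bases long, also lies in the RefSeq window of Hspd1. The 250 bases before the start used there are chr9:64084038-64084287 on the minus strand. These also lie within the annotated Hspd1 span, so the start used is not the end of that span.
Hspe1: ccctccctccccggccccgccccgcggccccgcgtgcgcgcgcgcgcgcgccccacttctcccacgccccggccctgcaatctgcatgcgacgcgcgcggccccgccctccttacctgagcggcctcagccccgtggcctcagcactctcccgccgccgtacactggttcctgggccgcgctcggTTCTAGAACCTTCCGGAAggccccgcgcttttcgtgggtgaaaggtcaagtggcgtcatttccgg

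Prefoldin, the hexamer that delivers actin and tubulin to CCT, was detected weakly. PFDN5 (207132_x_at) had 3870 in control and 3597 in sorted cells, both Present, a log2 ratio of -0.11. PFDN4 (205362_s_at) was Present at 533 in control cells and Absent at 775 in sorted cells. PFDN6 (242048_at, annotated together with MIR6834) was Absent at 874 in control cells and Present at 1141 in sorted cells. None of these reached 2-fold. PFDN1 and PFDN2 were Absent on both arrays.

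Of the J-domain proteins, which stimulate the ATPase of HSP70, 5 of 14 probe sets were detected, and all differed by less than 2-fold. DNAJC7, which also binds HSP90, had 9146 in control and 11372 in sorted cells at 202416_at and 621 and 652 at 1556053_at, all Present. DNAJB6, which suppresses the aggregation of polyglutamine proteins, had 840 and 870 at 208811_s_at, both Present. Its probe set 208810_at was Absent at 3009 in control and Present at 3461 in sorted cells. Both DNAJB6 probe sets are also annotated to TMEM135. The mitochondrial DNAJA3 (1554078_s_at) was Present at 1097 in control cells and Absent at 681 in sorted cells, at least 1.61-fold lower. DNAJA1, DNAJA2 and DNAJB1, the major cytosolic partners of HSP70, were Absent on both arrays, as was HSPB1, so the stress-inducible members DNAJB1 and HSPB1 have no measured level here.

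**Figure D3:**
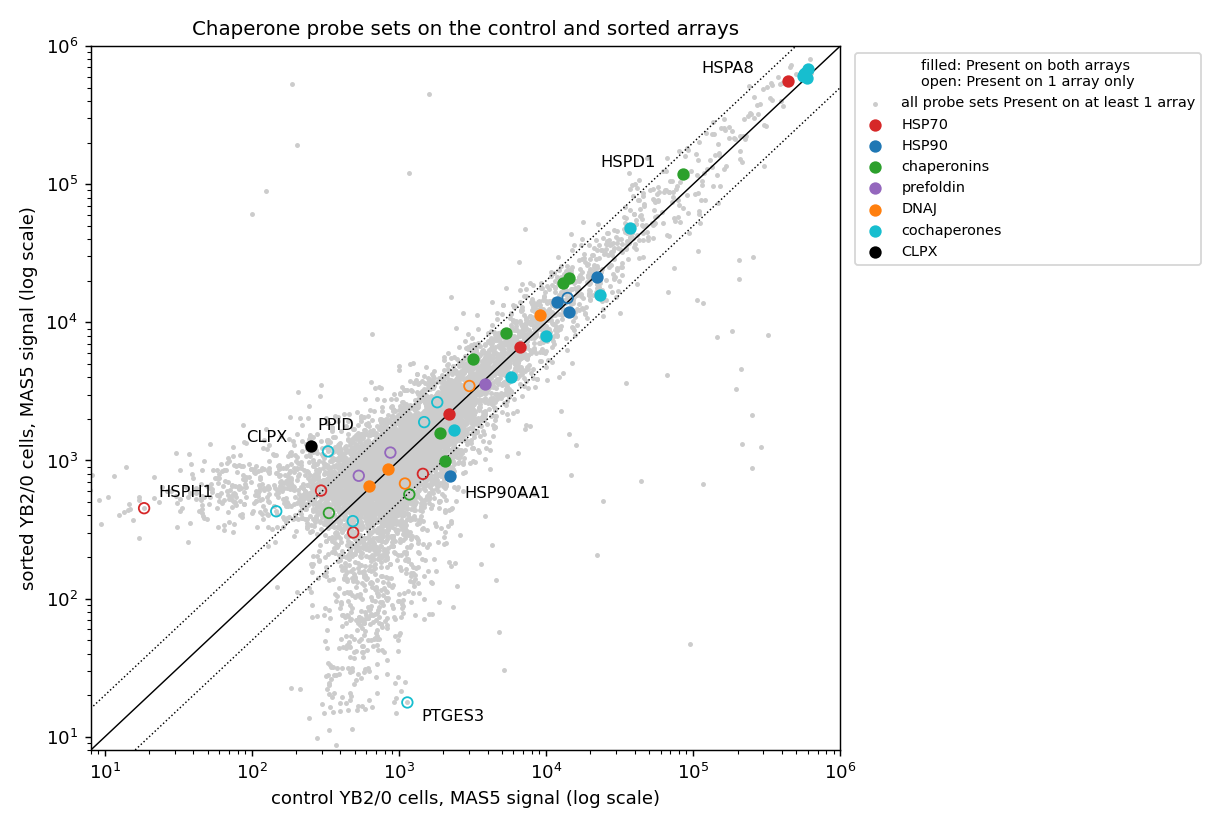
Signal of the 46 chaperone probe sets Present on at least 1 array in control cells (horizontal axis) and sorted cells (vertical axis), both as MAS5 signal on log scales, coloured by family, over all probe sets Present on at least 1 array (grey). Equal signals lie on the solid line and 2-fold gaps on the dotted ones, and most coloured points lie between the dotted lines, with PTGES3 at 1140 and 17.7 far below them.

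The cochaperone PTGES3 (p23), which closes the HSP90 clamp and is also a prostaglandin E synthase, was Present at 1140 in control cells, with a detection p-value of 0.000732, and Absent at 17.7 in sorted cells. The fold was at least 7.16 by the rule for limits, and with dim signals raised to the median of the Absent probe sets the log2 ratio was -2.27. PTGES3 has a single probe set, 200627_at, so no second reading exists. The rat gene Ptges3 is on chromosome 7 from 1075230 to 1092363.

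PPID (cyclophilin 40), a prolyl isomerase in HSP90 complexes, passed the 2-fold rule at 2 of its 3 probe sets, both higher in sorted cells. Probe set 204186_s_at was Absent at 330 in control cells and Present at 1164 in sorted cells, at least 3.53-fold higher. Probe set 228469_at was Absent at 146 and Present at 429, at least 2.89-fold higher. Both had a detection p-value of 0.0142 in sorted cells. Raising dim signals left 204186_s_at unchanged at a log2 ratio of 1.82 and brought 228469_at to 0.84, under 2-fold. The third, 204185_x_at, was Absent on both arrays at 708 and 669. PPID was the only gene of the list that passed the rule at more than 1 probe set. FKBP4 (FKBP52), another prolyl isomerase of HSP90 complexes, was Absent at 1820 in control cells and Present at 2641 in sorted cells at 200895_s_at, at least 1.45-fold higher, and its other probe sets were Absent on both arrays.

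PPIA (cyclophilin A), an abundant cytosolic prolyl isomerase, had 5 probe sets Present on both arrays and close to each other. The signal ran from 559103 to 606568 in control cells and from 588487 to 681568 in sorted cells. The log2 ratios lay between -0.01 and 0.17. Under quantile normalization they lay between -0.32 and 0, so no direction can be given. All 5 are of the _x_at class, 4 are also annotated to PPIAP34, a pseudogene, and signal from near-identical copies cannot be told apart. The remaining 3 PPIA probe sets were Absent on both arrays.

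BAG6, which guides tail-anchored and mislocalised proteins, had a lower signal in sorted cells at all 3 detected probe sets. Probe set 210208_x_at had 23378 in control and 15828 in sorted cells, 201255_x_at had 9950 and 7983, and 213318_s_at had 5780 and 4035, all Present. The log2 ratios were -0.56, -0.32 and -0.52, none reached 2-fold, and all lie within the spike range. With centring they ran from -0.67 to -0.43 and with quantile normalization from -0.65 to -0.45. BAG1, a nucleotide exchange factor of HSP70, had 2368 and 1667 at 211475_s_at, both Present, a log2 ratio of -0.51. At 202387_at it was Present at 1483 in control cells and Absent at 1896 in sorted cells, the other direction. ST13 (HIP), which stabilises HSP70 bound to ADP, had 37444 and 47806 at 207040_s_at, both Present, a log2 ratio of 0.35, and was Present at 485 in control cells and Absent at 364 in sorted cells at 208667_s_at. STIP1 (HOP), the adaptor between HSP70 and HSP90, and CDC37, the adaptor for kinase clients, were Absent on both arrays.

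CLPX, the ATPase that unfolds substrates for the matrix protease CLPP, had the highest log2 ratio among the chaperone probe sets Present on both arrays. Probe set 204809_at had 254 in control and 1276 in sorted cells, which was 5.02-fold higher in sorted cells. The detection p-values were 0.0186 and 0.0376, and the control signal was close to 240, the median of the Absent probe sets there. The other CLPX probe set, 223507_at, was Absent on both arrays at 521 and 723. CLPP itself (202799_at) had 4125 and 3921, both Present, a log2 ratio of -0.07. Of 16 probe sets of the mitochondrial members, 2 were counted as higher, those of CLPX and HSPA9, and 0 as lower. These are 2 of the 6 Present on at least 1 array, where 12.9% of all such probe sets were higher, and the HSPA9 call is lost with centring.

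**Figure D4:**
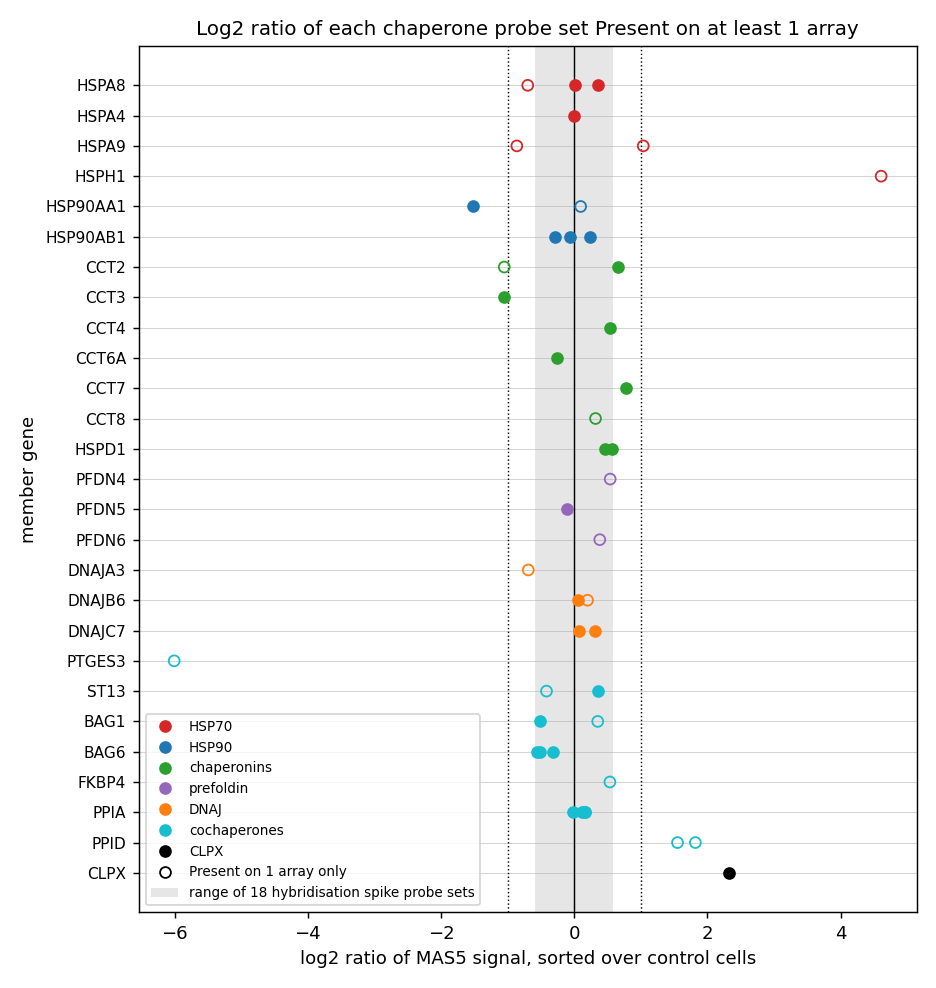
Log2 ratio of sorted over control signal (horizontal axis) for each chaperone probe set Present on at least 1 array, by gene (vertical axis) and coloured by family, with filled points Present on both arrays and open points Present on 1 array. The grey band is the range of the hybridisation spikes, -0.58 to 0.57, the dotted lines mark 2-fold, and for open points the plotted ratio is that of the deposited signals and not the limit.

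Probe sets of the same gene of the list differed in log2 ratio by at most 0.53 where they were Present on both arrays. In the 6 genes with several such probe sets, HSPA8, HSP90AB1, HSPD1, DNAJC7, BAG6 and PPIA, the log2 ratios within a gene spanned 0.11 to 0.53 over 17 probe sets. Log2 ratios differed in sign within HSP90AB1 and PPIA among these. Once probe sets Present on 1 array were included, they also differed in sign within HSPA8, HSPA9, HSP90AA1, CCT2, BAG1 and ST13. The detected probe sets of HSPD1, DNAJC7, BAG6, PPID and DNAJB6 shared a sign within each gene. Of the 9 chaperone probe sets past the 2-fold rule, 3 were Present on both arrays (HSP90AA1, CCT3 and CLPX) and 6 on 1 array. Probe sets Present on 1 array often pass this rule. Of all those Present in sorted cells only, 36.8% were counted as higher, and 4 of the 9 chaperone probe sets so called were (44.4%). Of all those Present in control cells only, 37.0% were counted as lower, and 2 of the 8 chaperone probe sets were. These shares put HSPH1, PPID, HSPA9, PTGES3 and the second CCT2 probe set in a class in which 2-fold gaps were common. The 56 chaperone probe sets not Present on either array had log2 ratios from -4.50 to 4.11, with 27 at 2-fold or more, and none of these is read as a level. They include the 20 probe sets of the 12 genes not Present on either array, whose signals ran from 39.9 to 5293.

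Rat promoters were searched for a heat shock element of 3 units. The units GAA and TTC, each other's reverse complement, had to alternate with any 2 bases between them, starting from either unit, which covers both strands and allows matches to overlap. The windows ran from 250 bases before to 50 bases after the annotated start, and RefSeq windows were matched by symbol for 36 of the 40 genes, with HSP90AA1, ST13, CLPX and DNAJA2 not matched. A match was held by 6 of the 36 genes (16.7%) and by 0.798% of all 33469 rat windows. The 6 were Hspa8, Hspd1, Hspe1, Hsph1, Dnaja1 and Cct4. Hspd1 and Hspe1 share their element. Counted from the annotated start, whose first base is 1, Hsph1 holds TTCTGGAAAGTTC from -36 to -24. Hspa8 holds TTCTGGAAGGTTC from -55 to -43 and GAAAGTTCCAGAA from -213 to -201. The Cct4 match, TTCTGGAAGGTTC, lies after the start, from 26 to 38, and is the same 13 bases as the nearer one of Hspa8. The Dnaja1 match, GAACTTTCCAGAA, lies from 10 to 22.

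Among the genes with this element, 5 probe sets of HSPA8, HSPD1 and CCT4 were Present on both arrays. Their log2 ratios ran from 0.01 to 0.57 with a median of 0.46, and all 5 were above 0, against 10 of 21 for the genes with a window and no match, whose median was -0.00. With centring 4 of 5 and 8 of 21 were above 0, and with quantile normalization 3 of 5 and 6 of 21. HSPA8 was the only gene of the 5 probe sets that changed sign. Of all probe sets Present on both arrays, 57.5% were above 0 as deposited and 52.7% with quantile normalization. Centring sets that share to 50%. The 5 values lie within the spike range, come from 3 genes and were set side by side after the log2 ratios were known. With the probe sets Present on 1 array included, 6 of 7 were above 0 for the genes with the element and 19 of 34 for those without it. Of all probe sets Present on at least 1 array, 52.3% were above 0. The 2 added with the element were both Present in sorted cells only, HSPH1 206976_s_at above 0 and HSPA8 221891_x_at below it at -0.70. DNAJA1 and HSPE1 were not Present on either array. Genes without a matched window are in neither group. Of these, HSP90AA1 211968_s_at, ST13 207040_s_at and CLPX 204809_at were Present on both arrays, at -1.52, 0.35 and 2.33. HSPA1A and HSPA1B, inducible HSP70 genes described below, were not among the genes compared. A match is a string of letters in a window and does not show binding or activity of heat shock factor 1.

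Further genes of the folding machinery, listed by function, gave the background for the chaperones named above. Of 75 genes, 72 had a probe set, and these 160 probe sets were Present on both arrays in 6.88% and on at least 1 array in 19.4%. By the 2-fold rule 3 were higher and 4 lower in sorted cells. Of those Present on at least 1 array these are 9.68% and 12.9%, near the 12.9% and 14.1% of all probe sets so detected. HSPBP1, a nucleotide exchange factor of HSP70, was Present at 14198 in control cells and Absent at 1551 in sorted cells at 202415_s_at, at least 9.15-fold lower. DNAJB14, a J-domain protein of the endoplasmic reticulum membrane, was Present at 443 in control cells and Absent at 46.2 in sorted cells, at least 2.78-fold lower. TBCA, a tubulin folding cofactor, had 2033 (Present) and 555 (Absent), at least 3.66-fold lower, and HSPA12A, a distant HSP70 relative, had 925 (Present) and 436 (Absent), at least 2.12-fold lower. Higher in sorted cells were DNAJB4, a J-domain protein of the cytosol, at 123 (Absent) and 435 (Present), at least 2.94-fold higher. TBCB, another tubulin cofactor, was higher at 211759_x_at with 2138 (Absent) and 5952 (Present), at least 2.78-fold, but its probe set 201804_x_at had 1720 and 1768, both Present. AHSA2P, a relative of AHSA1, was at 231 (Absent) and 603 (Present), at least 2.62-fold higher. These 7 were all Present on 1 array only. With dim signals raised to the median of the Absent probe sets, DNAJB4 was at a log2 ratio of 0.86 and DNAJB14 at -0.91, both under 2-fold. The inducible HSP70 genes HSPA1A and HSPA1B, read together by 202581_at, were Present at 513 in control cells and Absent at 396 in sorted cells, which is under 2-fold. Probe set 213418_at, annotated to HSPA6, another inducible HSP70, was Present on both arrays with 1757 in control and 1017 in sorted cells. Its log2 ratio of -0.79 is under 2-fold and below the spike range. Which rat transcript binds it was not tested, so no level of HSPA6 is read from it. None of the probe sets of HSF1, HSF4 and HSBP1, the heat shock factors and their binding protein, was Present on either array.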

How the data were processed

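RNA (6 µg of total RNA, labelled with biotin) of 1 control and 1 sorted sample of YB2/0 cells was hybridised to a separate Affymetrix array. The authors summarised probes with MAS5 into an intensity, scaled per array, with Affymetrix Expression Console (named without a version by the submitters' processing notes). The detection p-values, also deposited, compare the probes within a probe set. Signals of the series value table differed from the sample files by at most 0.00050%.

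Groups came from the labels. Members were found by splitting the annotated symbols of the 54613 probe sets left without the 62 Affymetrix control probe sets, and 19 of the 102 carry several symbols. Every member probe set Present on at least 1 array is described, and of the further pathway genes those past the 2-fold rule. HSPA1A, HSPA1B, HSPA6, CLPP, SDC1, PRDM1, CD27, the second probe set of TBCB and the genes under other observations were named after their values were seen. Members, lists and the promoter motif were chosen with earlier results of these data known. Log2 ratios were computed with Python 3.11.15, numpy 2.4.6 and pandas 2.3.3 and plotted with matplotlib 3.10.9. The 2-fold rule was tested on simulated data, with planted gaps well above 2-fold in probe sets Present on both arrays. That does not cover gaps near 2-fold or probe sets Present on 1 array. Alternatives covered scaling, dim signals, the detection rule, the fold and the choice of probe sets. A log2 ratio counted as moved where it changed by more than 0.33, the SD of the hybridisation spikes, and a count where it changed by more than 1.5 times. Precision is limited by the number of arrays, 1 per kind of cell.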

Additional observations from a re-analysis of the deposited data

How the results depend on the processing

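No paired analysis was possible because each condition has 1 array, and no array could be left out. Of 53 named probe sets, 47 moved under none of the 4 alternatives of scaling, dim signals and value table, and 0 reversed among those past the 2-fold rule. Quantile normalization moved 1, HSPA8 210338_s_at, from 0.35 to -0.08. Raising dim signals moved 5: PTGES3 to -2.27, HSPH1 to 0.91, PPID 228469_at to 0.84, DNAJB4 to 0.86 and DNAJB14 to -0.91, the last 4 under 2-fold.

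The counts of 5 higher and 4 lower chaperone probe sets became 3 higher with dim signals raised. With gene-specific probe sets only they were 3 and 2, because fewer were compared, and Present probe sets fell from 37 to 11 in control and from 38 to 13 in sorted cells. A 4-fold rule left 2 and 1, Present on both arrays 1 and 2, an Absent call on the dimmer array 2 lower, and no detection call 15 and 21. For the further pathway genes, 3 and 4 became 1 and 2 with gene-specific probe sets, 0 and 2 at 4-fold, 0 and 0 with Present on both arrays, and 32 and 32 with no call. Family medians over probe sets Present on at least 1 array moved in 6 cases: HSP70, 0.01, to 1.04 with gene-specific probe sets and 0.52 with single symbols. Chaperonins, 0.46, gave -0.36 over those with an Absent call beside a Present one. Prefoldin, 0.39, gave -0.11 over those Present on both. Cochaperones, 0.14, gave -0.40 and CLPX, 2.33, gave 1.40 with no call. The cause was not tested beyond the number of probe sets compared.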

Other observations

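Among the further pathway genes Present on both arrays, signals were within 2-fold. TOMM70, the mitochondrial import receptor that takes preproteins from HSP70 and HSP90, had 8068 in control and 13521 in sorted cells at 201512_s_at and 819 and 702 at 201519_at, log2 ratios of 0.74 and -0.22 that differ in sign. DNAJC19, a J-domain protein of the inner mitochondrial membrane, had 12710 and 16020 at 225359_at, a log2 ratio of 0.33. SUGT1, an HSP90 cochaperone, had 1358 and 1197 at 223329_x_at and 745 and 999 at 224309_s_at, log2 ratios of -0.18 and 0.42. NUDC, an HSP90 cochaperone of dynein, had 2248 and 3420 at 210574_s_at, a log2 ratio of 0.61, while 201173_x_at was Present at 4674 in control cells and Absent at 3715 in sorted cells. No direction was shared by the probe sets of TOMM70, SUGT1 or NUDC.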
